A study of Rattus norvegicus with 10 samples.

Results

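Proteins that enter the secretory pathway fold in the endoplasmic reticulum (ER) with the help of chaperones, oxidoreductases and a glycoprotein quality-control cycle. Those that fail to fold are passed back to the cytosol and degraded, a route called ER-associated degradation (ERAD). When unfolded proteins build up, the membrane sensors Atf6, Ern1 (IRE1) and Eif2ak3 (PERK) start the unfolded protein response (UPR), which induces chaperone and ERAD genes. Chondrocytes export large amounts of collagen and proteoglycan and depend on this machinery. The genes described here are 39 genes of this machinery, chosen by name and ordered in 3 classes: 4 sensor genes, among which Xbp1, the transcription factor that Ern1 activates, was counted; 24 chaperones and folding enzymes; and 11 ERAD genes. Of the 39 genes, 37 had a row among the 10184 of the table; the expression of Derl3 and Ero1b was not analysed here. A further 3, Xbp1, Pdia5 and Edem3, lay below the filter on low values, which left 34 among 8431 tested genes.

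The libraries came from RCS cells, a rat chondrosarcoma line, taken 48 h after seeding. There were 5 ARSL knockout (ARSL KO) libraries, from RCS cells lacking the sulfatase ARSL, and 5 wild-type (WT) libraries from untreated RCS cells; both kinds are called biological replicates. The labels do not say how many knockout clones were used or when each culture was grown, so an effect of the deletion cannot be told apart from another difference between the lines, and p-values measure only the spread between these libraries. The symbols Arsl and Arse matched no row, so the deletion itself was not checked here. The libraries held 2065594 to 2591819 reads over the listed genes. Of 8 chondrocyte markers 6 had a row, among them Col2a1 and Acan, and their summed level was 31090 to 41747 normalised reads in ARSL KO and 36552 to 60992 in WT. Of 6 fibroblast markers 1, Pdgfra, had a row, with 0.923 to 10.7 normalised reads in ARSL KO and 0 to 10.9 in WT. WT 3, WT 4 and, less far, ARSL KO 4 stood apart from the other libraries on the first principal component, which held 51.1% of the variance. They scored 28, 26.8 and 7.9 on it, and the other 7 libraries -15 to -3. Differences of the genes described by library, and the medians of each class or list, are therefore also given without these 3 libraries. Levels are normalised reads (recovered reads over the size factor of their library), and differences are ARSL KO minus WT on the deposited log2-like scale. Levels of different genes are not compared, because reads were not scaled to gene length.

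Many promoters of this machinery carry the ER stress response element (ERSE), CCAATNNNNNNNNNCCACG, or the shorter ERSE-II, ATTGGNCCACG, both bound by Atf6 together with the general factor NF-Y. RefSeq promoter windows (250 bases before to 50 after the annotated start, build GRCr8) matched 32 of the 39 genes. An exact ERSE, on either strand, lay in the windows of 9 of the 32 genes (28.1%) and in 0.0657% of 33469 windows of all rat genes, 22 windows in all. ERSE-II lay in 3 of the 32 (9.38%) and in 0.0508% of all windows, and the UPRE, TGACGTGG, bound by Xbp1 and Atf6, in 2 (6.25%, Dnajc10 and Hyou1) and in 0.595%. In Hyou1 the UPRE overlaps an ERSE-II. ERSE was first described in promoters of this very group, Hspa5, Hsp90b1 and Calr among them, so the motif was partly defined on these genes. The elements are shown to let their shared ends and free middles be compared; capitals mark the fixed bases, and each is read on the strand on which the motif runs forward.
Hspa5: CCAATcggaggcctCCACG
Hsp90b1, distal: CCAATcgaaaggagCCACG
Hsp90b1, proximal: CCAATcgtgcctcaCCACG
Calr: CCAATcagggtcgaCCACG
Canx: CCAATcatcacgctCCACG
Creld2: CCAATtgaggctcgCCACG
Dnajc3: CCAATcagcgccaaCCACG
Xbp1: CCAATcgcagacggCCACG
Derl3: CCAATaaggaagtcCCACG
Ero1b: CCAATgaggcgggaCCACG
Herpud1, ERSE-II: ATTGGgCCACG
Dnajb11, ERSE-II: ATTGGcCCACG
Hyou1, distal ERSE-II: ATTGGcCCACG
Hyou1, proximal ERSE-II: ATTGGgCCACG

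**Figure D1:**
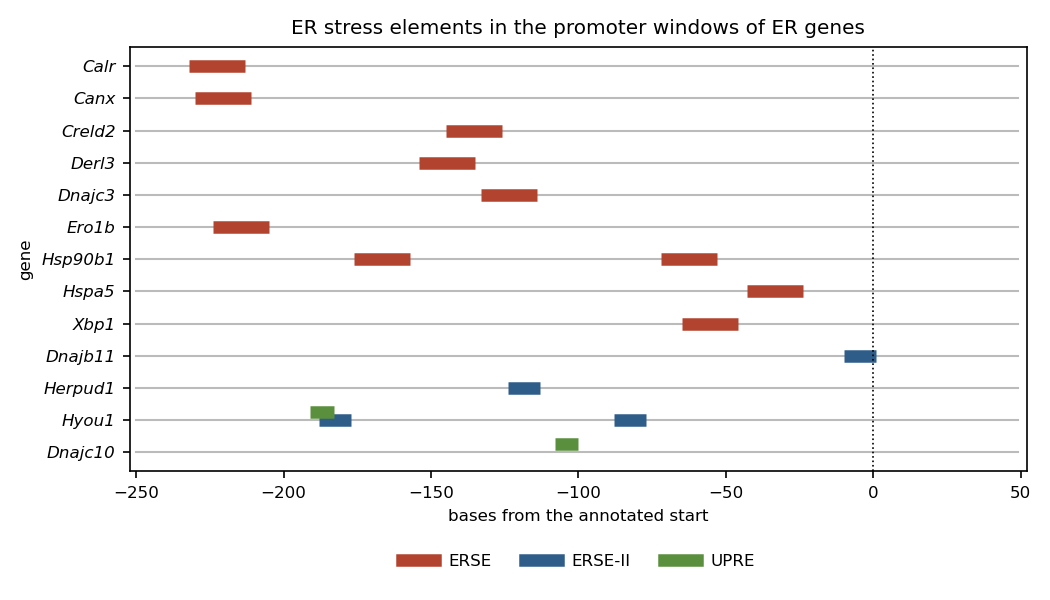
Positions of exact ERSE, ERSE-II and UPRE matches (coloured bars, to scale) in the promoter windows of the 13 ER genes with a match, with bases from the annotated start on the x axis and 1 gene a row. All matches lie at or before the start, from 232 bases before it in Calr to the start itself in Dnajb11, and Hsp90b1 and Hyou1 hold 2 ERSE or ERSE-II each.

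In ARSL KO cells 1 of the 34 tested ER genes passed the test, and it fell. This was 2.94% of them, against 1.14% of the 8431 tested genes, and 0.878% in the downward direction (limma, Benjamini-Hochberg adjusted p under 0.05), a share that rests on 1 gene. The gene was Sdf2l1, an ER-resident component of BiP chaperone complexes. The other 33, with the sensors, the main chaperones and every ERAD gene tested among them, did not pass. The unadjusted p was under 0.05 for 4 of the 34 (11.8%), against 13.5% of all tested genes, a share close to that of the table. The median difference over the 34 genes was -0.08, against 0.01 over all tested genes, and -0.01 without WT 3, WT 4 and ARSL KO 4.

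Sdf2l1 (ENSRNOG00000001859) had 281, 279, 268, 295 and 223 normalised reads in ARSL KO 1 to 5, against 386, 353, 620.4, 605 and 415 in WT 1 to 5. All ARSL KO values lay below all WT values, as in 2.4% of tested genes, and WT 3 and WT 4 were the highest of the 10. The means were 269 ± 27.4 in ARSL KO and 476 ± 127 in WT (SD, n = 5 each), so the level was 1.77-fold lower in ARSL KO, and it fell by 0.71 (SE 0.145; limma adjusted p = 0.0267) in log2-like units. Without WT 3, WT 4 and ARSL KO 4 the level was 1.46-fold lower and it fell by 0.49 (limma adjusted p = 0.00325). With single libraries left out, the call was lost without WT 3, WT 4 or ARSL KO 1, 2, 3 or 5 (limma adjusted p = 0.0505 to 0.0985), at differences of -0.72 to -0.61. The promoter window of Sdf2l1 (chr11:97376628-97376927, plus strand, GRCr8) held none of the 3 elements in exact form. It is shown beside that of Hspa5 (chr3:38452766-38453065, plus strand, GRCr8) and that of Hsp90b1 (chr7:23012244-23012543, minus strand, GRCr8), which hold 1 and 2 exact ERSE. Capitals mark the fixed bases of an ERSE in Hspa5 and Hsp90b1. In Sdf2l1 they mark the single match to CCACG, here on the opposite strand, a motif held by 31.6% of all windows.
Sdf2l1: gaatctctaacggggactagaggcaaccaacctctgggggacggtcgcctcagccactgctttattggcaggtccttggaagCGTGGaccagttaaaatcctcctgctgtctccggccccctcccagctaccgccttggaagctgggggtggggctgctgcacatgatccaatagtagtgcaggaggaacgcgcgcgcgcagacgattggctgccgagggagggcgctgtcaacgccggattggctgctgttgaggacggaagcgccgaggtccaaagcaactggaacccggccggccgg
Hspa5: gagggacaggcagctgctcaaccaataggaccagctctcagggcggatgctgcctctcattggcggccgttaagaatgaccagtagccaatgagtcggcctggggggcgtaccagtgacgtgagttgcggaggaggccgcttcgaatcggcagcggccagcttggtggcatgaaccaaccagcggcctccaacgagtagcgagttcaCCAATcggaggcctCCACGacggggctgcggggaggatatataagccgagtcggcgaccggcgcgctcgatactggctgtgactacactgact
Hsp90b1: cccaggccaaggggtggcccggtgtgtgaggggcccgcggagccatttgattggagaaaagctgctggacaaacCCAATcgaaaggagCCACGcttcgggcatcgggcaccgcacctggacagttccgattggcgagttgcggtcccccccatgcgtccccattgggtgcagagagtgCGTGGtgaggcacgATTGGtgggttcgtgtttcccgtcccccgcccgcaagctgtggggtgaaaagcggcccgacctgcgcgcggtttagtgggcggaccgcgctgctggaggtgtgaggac

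The partners and the close relative of Sdf2l1 did not pass. Dnajb11 (ERdj3), the J-domain cochaperone with which Sdf2l1 forms a complex, had 586, 553, 512, 541 and 578 normalised reads in ARSL KO 1 to 5, against 557, 649, 583, 569.8 and 614 in WT 1 to 5. The groups overlapped, and the difference was -0.10 (95% interval -0.27 to 0.08; limma adjusted p = 0.635; -0.11 without the 3 libraries). Sdf2, the paralogue of Sdf2l1, had 129, 153, 149, 179 and 148 normalised reads in ARSL KO, against 147, 156, 188, 201 and 163 in WT, again with overlap, at a difference of -0.14 (95% interval -0.36 to 0.08; limma adjusted p = 0.566; -0.08 without the 3 libraries). Both intervals end above the estimate for Sdf2l1; the difference between these genes was not tested.

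Uggt1, the glucosyltransferase that senses misfolded glycoproteins and returns them to calnexin and calreticulin, had the next smallest p. It had 775, 753, 533, 924 and 683 normalised reads in ARSL KO 1 to 5, against 893, 865, 1458, 1389 and 875 in WT 1 to 5. Only ARSL KO 4 reached into the WT range. The difference was -0.54 (SE 0.17; limma adjusted p = 0.17), which did not pass. Without WT 3, WT 4 and ARSL KO 4 the estimate was smaller, -0.35, but passed with limma adjusted p = 0.0484, and Sdf2l1 and Uggt1 were then 2 calls among the 34, both lower in ARSL KO, against 3.56% of all tested genes, and 2.22% in that direction. Without WT 3 and WT 4 but with ARSL KO 4 the difference was -0.27 (limma adjusted p = 0.324), so the call needed ARSL KO 4 left out as well. The p of 0.0484 lies close to the threshold, and the 3 libraries were set apart on these same values.

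**Figure D2:**
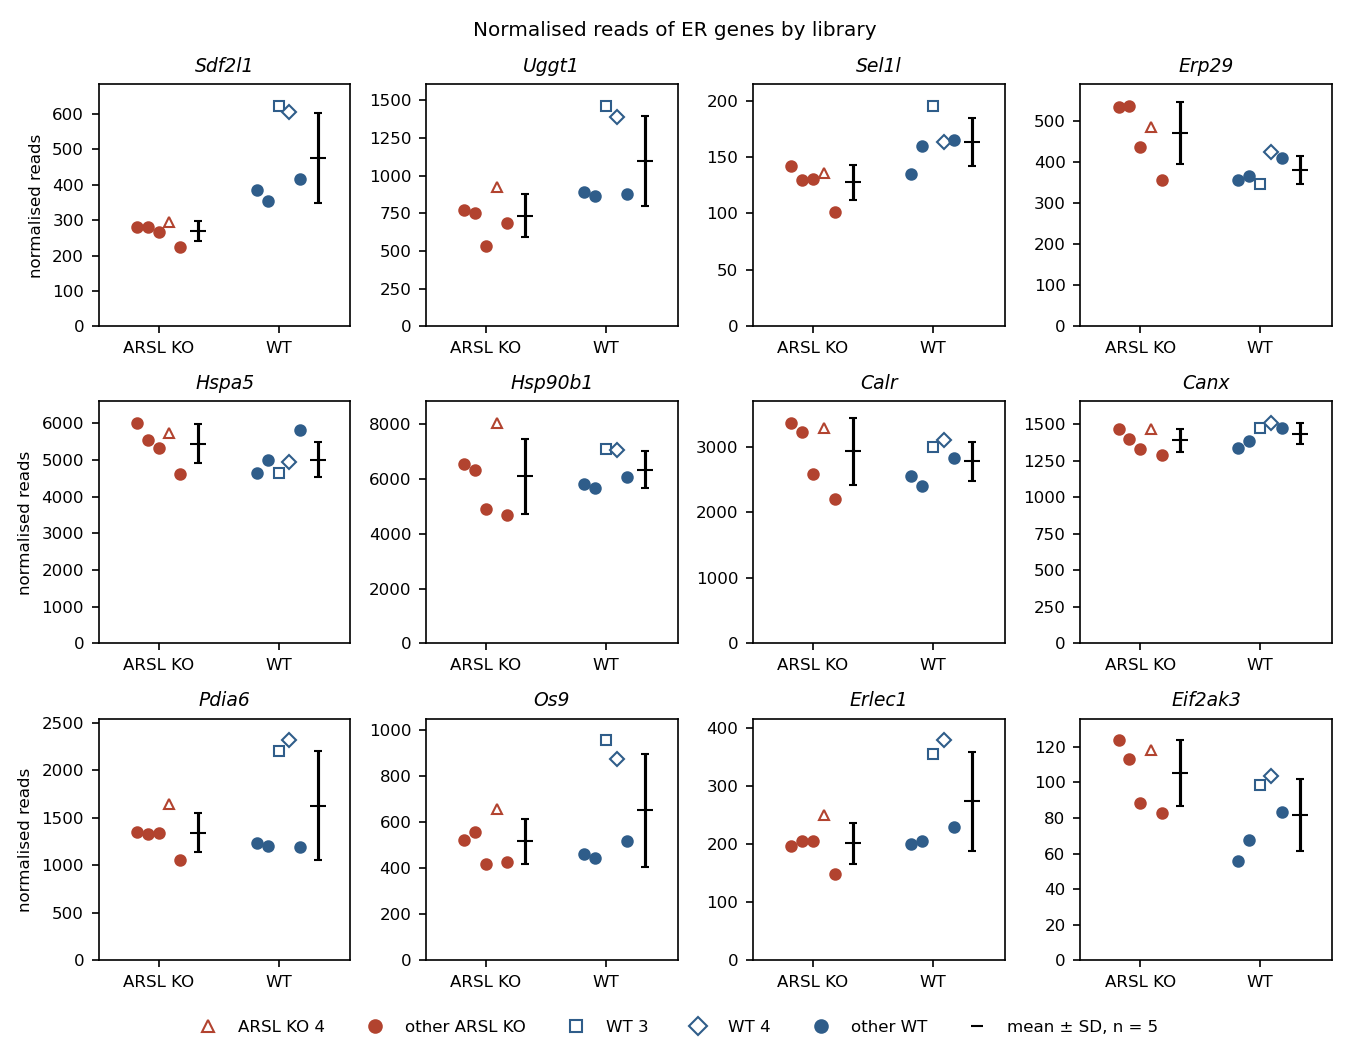
Normalised reads (y axis, from 0) of 12 ER genes in the ARSL KO (left) and WT (right) libraries, 1 point a library, with the mean ± SD of 5 libraries as a bar beside each group; open symbols mark ARSL KO 4, WT 3 and WT 4. Sdf2l1 is the only panel without overlap, at 223 to 295 normalised reads in ARSL KO and 353 to 620.4 in WT, and WT 3 and WT 4 lie above the other WT libraries in Sdf2l1, Uggt1, Pdia6, Os9 and Erlec1, among others.

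Among the sensors, 0 of 3 tested genes passed by limma, with 0 at an unadjusted p under 0.05, and their median difference was 0.03, and -0.01 without the 3 libraries. Atf6, which is cut in the Golgi to release a transcription factor, had 91.3, 69.5, 80.3, 112 and 97.8 normalised reads in ARSL KO 1 to 5, against 105, 69.7, 85.3, 96.6 and 82.5 in WT 1 to 5. Ern1, the kinase and RNase that splices Xbp1 mRNA, had 65.5, 80.4, 38.8, 65.4 and 62.8 in ARSL KO, against 46.2, 68.7, 88.6, 79.3 and 69.8 in WT. The groups overlapped almost wholly for both genes, with differences of 0.03 (95% interval -0.22 to 0.27) and -0.12 (-0.41 to 0.18), and of -0.01 and -0.01 without the 3 libraries. Eif2ak3, the kinase that slows translation under ER stress, had 123, 113, 88.6, 118 and 82.5 normalised reads in ARSL KO 1 to 5, against 55.8, 67.7, 98.5, 103 and 83.5 in WT 1 to 5. WT 1 and WT 2 were the lowest of the 10, and the difference of 0.27 (SE 0.133; limma adjusted p = 0.396) did not pass; it was 0.39 without the 3 libraries (limma adjusted p = 0.0897). Xbp1 was near the lower limit of the table, at 8.59, 8.69, 12.9, 10.7 and 4.48 normalised reads in ARSL KO and 0, 6.77, 23, 9.56 and 10.6 in WT, and was not tested. The 3 tested sensors had few reads too, and there the log2-like scale understates a fold change. A fit on recovered reads (limma-voom) gave differences of 0.03 for Atf6, -0.18 for Ern1 and 0.38 for Eif2ak3. The values here are levels of mRNA: the cleavage of Atf6, the splicing of Xbp1 and the phosphorylation of Eif2ak3 were not measured.

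The chaperones that are standard read-outs of ER stress overlapped between the genotypes. Hspa5 (BiP), the central ER Hsp70, had 5992, 5553, 5311, 5734 and 4606 normalised reads in ARSL KO 1 to 5, against 4649, 5004, 4640.1, 4944 and 5811 in WT 1 to 5. The highest and the lowest of the 10 were both ARSL KO libraries, so the groups overlapped, and the difference was 0.12 (95% interval -0.11 to 0.34; limma adjusted p = 0.651; 0.06 without the 3 libraries). Hsp90b1 (GRP94), the ER Hsp90, had 6535, 6329, 4886, 8018 and 4683 normalised reads in ARSL KO, against 5821, 5659.7, 7074, 7040.1 and 6076 in WT, with ARSL KO 4 the highest of the 10 and ARSL KO 3 and 5 the lowest (difference -0.08, 95% interval -0.39 to 0.23; -0.08 without the 3 libraries); its sign turned after quantile normalization (0.02) and without WT 3 and WT 4 (0.03). Dnajb9 (ERdj4), a BiP cochaperone that rises strongly under ER stress, had 80.5, 64.1, 80.3, 78.1 and 59.2 normalised reads in ARSL KO, against 49.7, 88.1, 62.4, 81.3 and 72.9 in WT (difference 0.03, 95% interval -0.22 to 0.28; 0.02 without the 3 libraries). Dnajb9 had few reads, as the sensors did, and there the log2-like scale understates a fold change.

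The lectin chaperones that hold glycoproteins in the folding cycle also overlapped. Calr (calreticulin) had 3358, 3233, 2591, 3289.8 and 2199 normalised reads in ARSL KO 1 to 5, against 2551, 2407, 2999, 3107 and 2836 in WT 1 to 5, and Canx (calnexin) had 1463, 1401, 1328, 1466 and 1289 in ARSL KO, against 1336, 1382, 1473, 1504 and 1474 in WT. Their differences were 0.06 (95% interval -0.21 to 0.34) and -0.04 (-0.22 to 0.13), and 0.11 and -0.03 without the 3 libraries. The SE of Canx, 0.0833, was among the 3 smallest of the 34 genes. The remaining BiP cochaperones and nucleotide exchange factors did not pass either: Sil1, an exchange factor of BiP, had 104, 84.7, 75.7, 89.8 and 70.9 normalised reads in ARSL KO, against 78.4, 93.9, 125, 149 and 105 in WT (difference -0.26, limma adjusted p = 0.404; -0.10 without the 3 libraries). Hyou1, another exchange factor, and the J-domain proteins Dnajc3, Dnajc10 and Dnajc1 differed by -0.14, 0.07, -0.08 and -0.09. Manf and Creld2, secreted proteins induced by ER stress, differed by 0.10 and -0.08.

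Of the disulfide-handling enzymes, Erp29, a PDI-like protein without the redox motif, had the smallest p. It had 534, 534, 437, 485 and 355 normalised reads in ARSL KO 1 to 5, against 356, 366, 346, 424 and 410.1 in WT 1 to 5. The 4 highest libraries were ARSL KO 1 to 4 and the fifth, ARSL KO 5, lay within the WT range. The difference was 0.27 (SE 0.112; limma adjusted p = 0.311), nearly the same without the 3 libraries (0.26), and did not pass. Pdia4, a thioredoxin-domain isomerase, had 342, 314, 240.0, 372 and 275 normalised reads in ARSL KO, against 323, 331, 395, 450.3 and 288 in WT (difference -0.19, limma adjusted p = 0.548; -0.10 without the 3 libraries). The thiol isomerases Pdia3, which works with calnexin and calreticulin, and Pdia6 differed by -0.12 and -0.22, and by 0.07 and 0.06 without the 3 libraries, so that the sign turned. Txndc5, a thioredoxin-domain enzyme, and Erp44, a retrieval factor for ER enzymes, differed by -0.04 and -0.11. Pdia5, untested, had 14, 13, 7.39, 7.81 and 14.3 normalised reads in ARSL KO and 8.72, 10.6, 10.9, 4.78 and 9.51 in WT. Over the 22 tested chaperones and folding enzymes the differences ran from -0.71 to 0.27, with a median of -0.08, and of -0.05 without the 3 libraries. With all libraries 16 lay below and 6 above 0, so 72.7% lay below, against 47.9% of all tested genes. Without the 3 libraries 13 lay below and 9 above 0.

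Among the ERAD genes 0 of 9 tested passed by limma, and 1 had an unadjusted p under 0.05. This was Sel1l, the scaffold of the Hrd1 ubiquitin ligase, with 142, 129, 130.2, 136 and 101 normalised reads in ARSL KO 1 to 5, against 135, 159.7, 195, 163 and 165 in WT 1 to 5. WT 1 lay inside the ARSL KO range and the other WT libraries above it, and the difference was -0.28 (SE 0.104; limma adjusted p = 0.233; -0.23 without the 3 libraries). Syvn1 (Hrd1), the ligase itself, differed by 0.07. The substrate lectins Erlec1 and Os9, which hand glycoproteins to this ligase, had wide WT ranges. Erlec1 had 198, 205, 206, 249.8 and 149 normalised reads in ARSL KO, against 200.5, 206, 354, 379 and 230.4 in WT, and Os9 had 522, 557, 419, 656 and 428 in ARSL KO, against 461, 444, 953, 874 and 518 in WT. In both genes WT 3 and WT 4 were the 2 highest libraries, and the other 8 were mixed. The differences were -0.35 and -0.26 with all libraries, and -0.14 and 0.01 without the 3, so that the sign of Os9 turned.

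Herpud1, a membrane adaptor of the ligase that rises early under ER stress, had 166, 131, 147, 155 and 144 normalised reads in ARSL KO 1 to 5, against 141, 96.8, 209, 250.5 and 237 in WT 1 to 5. The ARSL KO values stayed close together and lay inside the WT spread, which ran from WT 2 at the bottom to WT 4 at the top (difference -0.21, 95% interval -0.59 to 0.16; -0.02 without the 3 libraries). Derl1, a channel component of the retrotranslocation complex, had 955, 883, 946, 912 and 865 normalised reads in ARSL KO, against 720.0, 766, 1016, 989 and 788 in WT (difference 0.10; 0.25 without the 3 libraries, limma adjusted p = 0.0889). Edem1, a mannosidase-like factor that marks glycoproteins for ERAD, had 49.4, 45.6, 37.9, 39 and 38.6 in ARSL KO, against 33.1, 33.9, 39.4, 36.3 and 43.3 in WT (difference 0.10; 0.12 without the 3 libraries). Edem1 had few reads, and limma-voom on recovered reads gave a difference of 0.17 for it. Edem2 and Derl2 differed by -0.08 and 0.02. Edem3, untested, had 8.59, 6.52, 5.54, 10.7 and 1.79 normalised reads in ARSL KO and 6.1, 7.74, 4.38, 7.65 and 7.4 in WT. The median over the 9 tested ERAD genes was -0.08, and 0.01 without the 3 libraries.

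**Figure D3:**
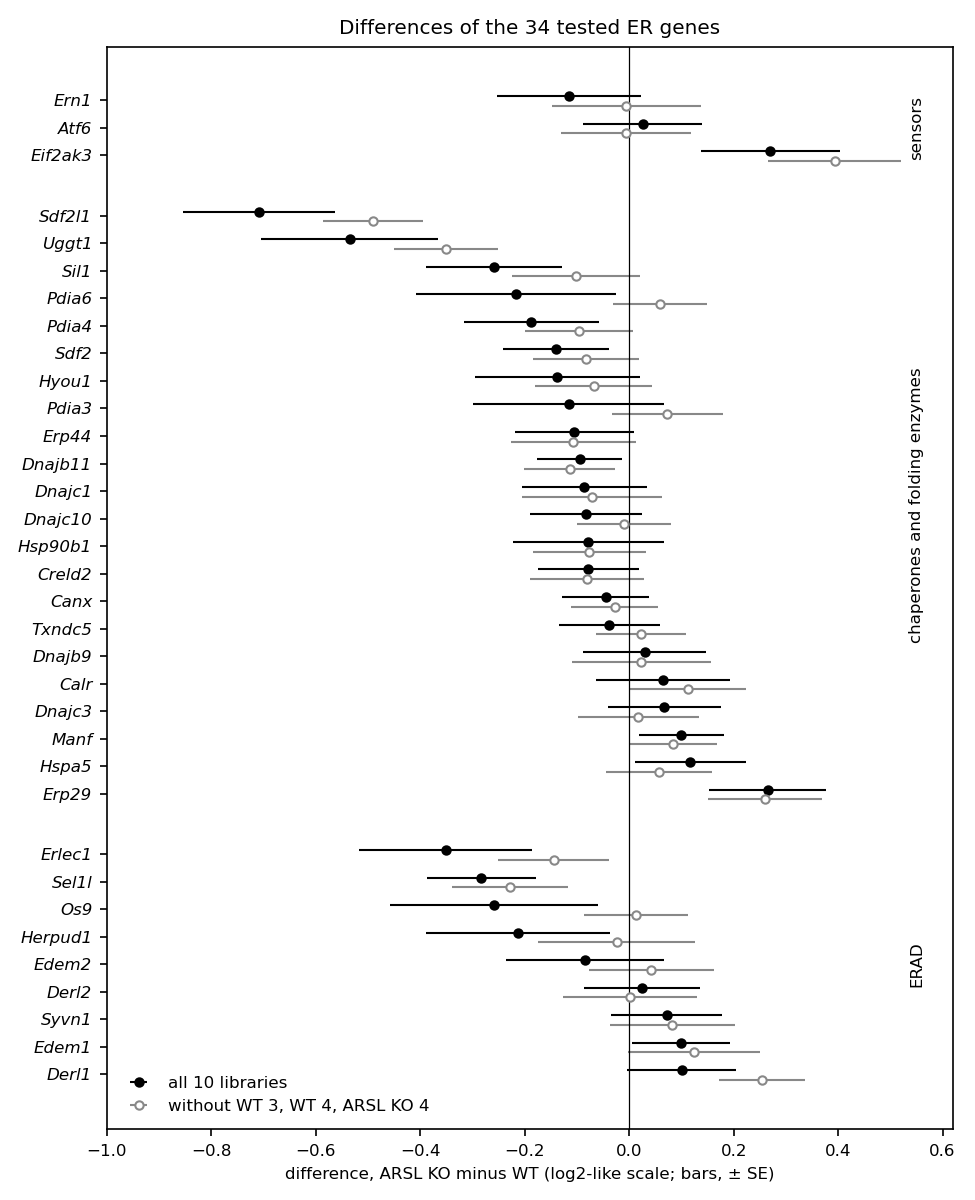
Differences ARSL KO minus WT on the log2-like scale (x axis) of the 34 tested ER genes (rows, by class), as points with SE bars, with all 10 libraries (black) and without WT 3, WT 4 and ARSL KO 4 (grey, open). For genes with few reads this scale understates a fold change. Sdf2l1 lies farthest from 0 at -0.71 and -0.49, with Uggt1 next at -0.54 with all libraries and Eif2ak3 next at 0.39 without the 3, and 26 of the 34 genes lie closer to 0 without the 3 libraries.

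The ER genes were next compared between WT 3 and WT 4 and the other WT libraries. In 18 of the 34 tested ER genes WT 3 and WT 4 both lay above WT 1, WT 2 and WT 5, and in 1, Creld2, both lay below; the other 15 overlapped. Of all tested genes 27.2% had both above and 29% both below. These libraries were set apart on the same values, so the counts describe them and no test was made. By class, both lay above in 12 of 22 chaperones and folding enzymes, in 4 of 9 ERAD genes and in 2 of 3 sensors, Ern1 and Eif2ak3. In 12 of the 34, and in 16% of all tested genes, WT 3 and WT 4 lay above the other 8 libraries. The summed chondrocyte markers were also high there, at 60992 and 60912 normalised reads in WT 3 and WT 4, against 36552 to 39254 in the other WT libraries and 31090 to 41747 in ARSL KO. Much of this sum was Col9a1 and Col11a1, with means of 13922 and 4392 in ARSL KO and 17981 and 10436 in WT. The means of Col2a1 and Hapln1 were also lower in ARSL KO, and those of Acan and Comp were not. These markers were compared by library only as a sum. The sum of the 3 of 5 osteoblast markers with a row, Runx2, Alpl and Ibsp, which maturing chondrocytes also express, was high in WT 3 and WT 4 too. Ibsp added little to this sum, at means of 3.43 normalised reads in ARSL KO and 2.65 in WT. The summed level of the 3 markers was 1141 and 1075.5 normalised reads in WT 3 and WT 4, against 671 to 699 in the other WT libraries and 533 to 834 in ARSL KO, where ARSL KO 4 was the highest. Of 5 macrophage markers Cd68 and Cd14 had a row, with a sum of 19.7 and 19.1 in WT 3 and WT 4, against 11.6 to 16.9 in the other WT libraries and 15.6 to 19.6 in ARSL KO, and of 4 endothelial markers 0 had a row. The part of these markers in the ER values was not tested. In these bulk cultures more cells of a kind and more RNA per cell cannot be told apart.

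The widest gaps were in Pdia6, Os9, Uggt1, Erlec1, Sdf2l1 and Pdia3, in that order. Pdia6 had 2200.2 and 2312 normalised reads in WT 3 and WT 4, against 1232, 1203 and 1194 in WT 1, 2 and 5, a gap of 0.82 between the nearest values on the log2-like scale. Os9 had 953 and 874 in WT 3 and WT 4, against 461, 444 and 518 in WT 1, 2 and 5 (gap 0.71), and Uggt1 had 1458 and 1389, against 893, 865 and 875 (gap 0.61). In Pdia6, Os9 and Uggt1 the lower of WT 3 and WT 4 was at least 1.55 times the highest of the others. Erlec1 and Sdf2l1 followed with gaps of 0.55 and 0.50, and Pdia3 had 3046 and 2879.5 normalised reads in WT 3 and WT 4, against 1722, 1624 and 2087 in WT 1, 2 and 5 (gap 0.46). Hspa5, by contrast, had 4640.1 and 4944 in WT 3 and WT 4, against 4649, 5004 and 5811 in WT 1, 2 and 5, and the groups overlapped. So did Dnajb9, with 62.4 and 81.3 against 49.7, 88.1 and 72.9, Dnajb11, Dnajc3, Manf, Canx and Herpud1. The overlap was narrow in Canx, where WT 3 had 1472.7 normalised reads and WT 5 had 1473.6. In Herpud1 only WT 5, at 237, reached the range of WT 3 and WT 4, at 209 and 250.5. Of the 9 tested genes with an ERSE or ERSE-II in the window, 3 (Hsp90b1, Calr and Hyou1) had WT 3 and WT 4 above the others, of the 18 with neither element 10 did, and of the 7 without a promoter entry 5 did, against 27.2% of all tested genes. The 3 of 9 were close to that share, and the difference between these groups was not tested.

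ARSL KO 4 was the highest of the 5 ARSL KO libraries in 13 of the 18 ER genes in which WT 3 and WT 4 stood above the other WT libraries, Pdia6, Os9, Uggt1, Erlec1, Sdf2l1 and Pdia3 among them. Among all tested genes with that WT pattern the share was 53%, and among all tested genes 26.7%. Its Pdia6 value was 1648 normalised reads and its Os9 value 656, both between WT 3 and WT 4 and the other WT libraries. Its Sdf2l1 value of 295, by contrast, lay with the other ARSL KO libraries and below every WT library. Averaged over the tested genes of a class, each centred on its mean over the 10 libraries, the chaperones and folding enzymes stood at 0.034, 0.012, -0.165, 0.097 and -0.235 in ARSL KO 1 to 5 and at -0.095, -0.064, 0.165, 0.225 and 0.025 in WT 1 to 5. The ERAD genes stood at -0.052, -0.017, -0.064, 0.046 and -0.162 in ARSL KO and at -0.129, -0.138, 0.262, 0.247 and 0.006 in WT. In these classes ARSL KO 5 was lowest, WT 3 and WT 4 were highest, and WT 1 and WT 2 lay below ARSL KO 1, 2 and 4. The 3 sensors stood at 0.119, 0.063, -0.195, 0.176 and -0.012 in ARSL KO and at -0.205, -0.162, 0.115, 0.137 and -0.033 in WT, with ARSL KO 4 the highest of the 10 and WT 1 and ARSL KO 3 the lowest.

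**Figure D4:**
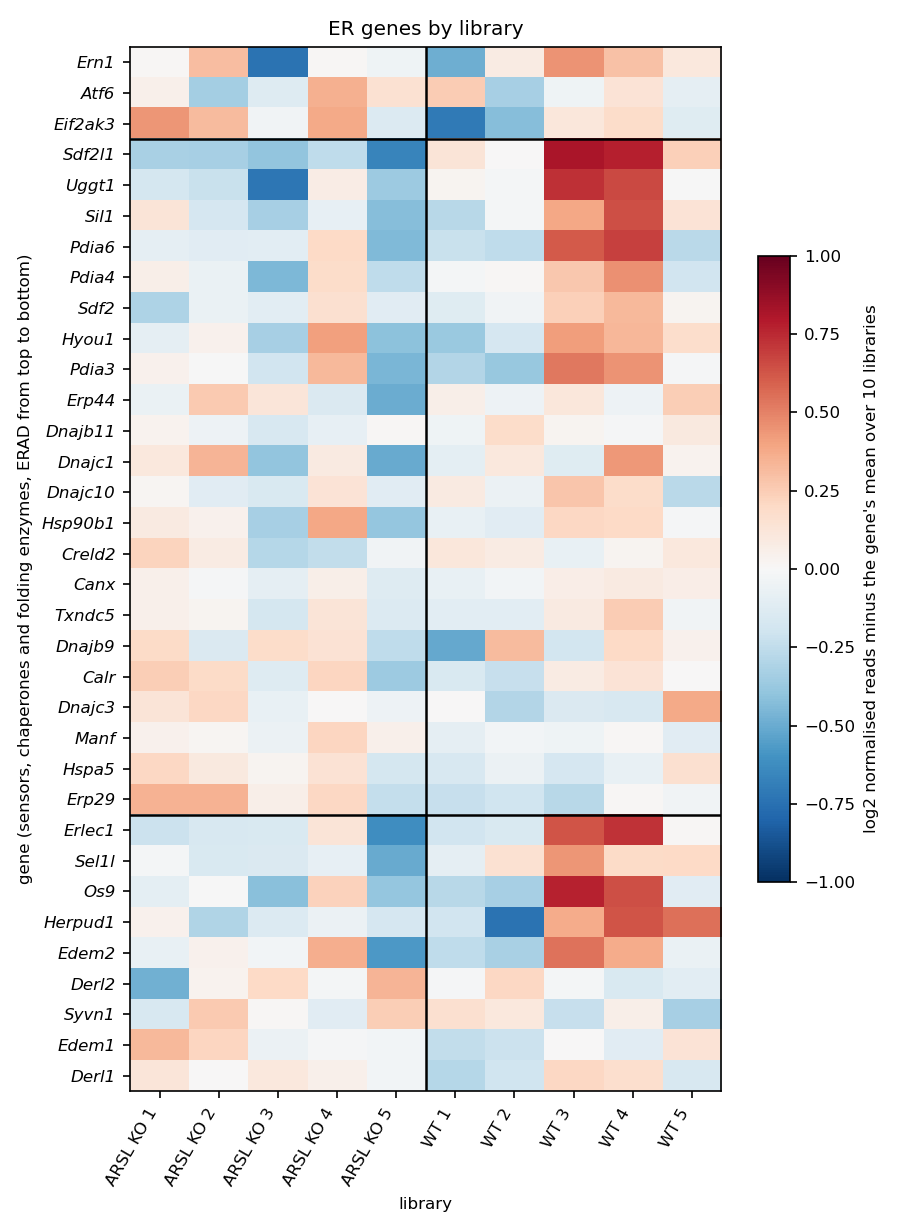
Heat map of log2 normalised reads minus the gene's mean over 10 libraries (colour, -1 to 1) for the 34 tested ER genes (rows, by class and then by difference) in the ARSL KO (left) and WT (right) libraries. Sdf2l1 is below its mean in every ARSL KO library, and the columns of WT 3 and WT 4 are high in Sdf2l1, Uggt1, Pdia6, Erlec1 and Os9 but not in Hspa5, Manf or Dnajb11.

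Beyond these genes, 69 of 78 other genes of the ER, in 5 lists, were tested, and 0 passed by limma; 4 had an unadjusted p under 0.05 (5.8%), against 1.14% and 13.5% of all tested genes, and limma-voom on recovered reads called 0 as well. Among the UPR regulators 0 of 12 passed, with a median difference of 0.13, and of 0.09 without the 3 libraries. Tmem33, an ER membrane protein, had 151, 139, 149, 169.8 and 178 normalised reads in ARSL KO 1 to 5, against 115, 122, 112, 133 and 125 in WT 1 to 5, all ARSL KO values above all WT values, as in 1.86% of tested genes (difference 0.29, limma adjusted p = 0.153; 0.28 without the 3 libraries). Ddit3 (CHOP), the transcription factor of prolonged ER stress, had 85.9, 80.4, 87.7, 135 and 81.6 in ARSL KO, against 80.2, 78.4, 177, 177 and 230.4 in WT. WT 3, WT 4 and WT 5 were the 3 highest libraries, and WT 1 and WT 2 the 2 lowest. The difference was -0.43 (limma adjusted p = 0.397). It was -0.34 without the 3 libraries, where of the WT libraries only WT 5 lay above those of ARSL KO.

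In the other ERAD list 0 of 14 passed (median 0.06; 0.01 without the 3 libraries). Faf2, which recruits the segregase VCP to the ER membrane, had 263, 276, 279.7, 249 and 264 normalised reads in ARSL KO 1 to 5, against 345, 321, 395, 347 and 288 in WT 1 to 5, all ARSL KO values below all WT values, as in 2.4% of tested genes (difference -0.30, limma adjusted p = 0.148; -0.20 without the 3 libraries), and Aup1, which anchors an ERAD ubiquitin-conjugating enzyme, differed by 0.27. In the translocon and signal peptidase list 0 of 14 passed (median 0.07; 0.08 without the 3 libraries), with differences of -0.27 for Sec11c, a catalytic subunit of signal peptidase, and 0.15 for Ssr1, a subunit of the translocon-associated complex, and in the list of N-glycan transfer and trimming 0 of 9 (median -0.03; 0.10 without the 3 libraries), with 0.26 for the ER mannosidase Man1b1 and -0.21 for Uggt2, the relative of Uggt1. The 20 other redox and folding enzymes had a median of 0.00 and 0 calls with all libraries, and a median of 0.10 without the 3 libraries. Txndc12, a thioredoxin-like ER protein, differed by 0.19. Calu (calumenin), a calcium-binding ER protein, had 4654, 4088, 3966, 3799 and 3618 normalised reads in ARSL KO, against 2806, 2859.9, 3967, 4199.8 and 3095 in WT, and differed by 0.26 (limma adjusted p = 0.396). Without WT 3, WT 4 and ARSL KO 4 it rose by 0.47 (limma adjusted p = 0.00293), as did Fkbp10, a prolyl isomerase that serves collagen, by 0.45 (limma adjusted p = 0.0157). Fkbp10 is named for this call, seen after its values. Calu and Fkbp10 were 2 calls among the 69 other ER genes tested, against 3.56% of all tested genes without the 3 libraries. WT 3 and WT 4 lay above the other WT libraries in 13 of these 20 enzymes, in 5 of 9 glycan genes, in 5 of 12 UPR regulators, in 4 of 14 translocon genes and in 4 of 14 other ERAD genes, against 27.2% of all tested genes. The last 2 lists, at 28.6% each, were close to that share.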

How the data were processed

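RNA profiles of 5 ARSL KO and 5 WT libraries of RCS cells were used. Per the submitters' processing notes, reads went through bcl2fastq, STAR 2.7.11a and HTSeq on rn6; the tool that stabilized the variance and any use of strand in counting are not stated there. In the table that the authors deposited, 10184 genes have log2-like, variance-stabilized values, the lowest of which, 4.422, stands for a count of 0. Inverting the transformation gave whole reads for 100% of values (largest departure 8.9e-09 reads, tolerance 0.01); every row had at least 30 reads in total. The filter kept the 8431 genes whose mean was 1 or more above that lowest value (10.7 normalised reads). They were tested with limma 3.58.1 in R 4.3.3 (intensity trend, two-sided, Benjamini-Hochberg over all tested genes, threshold 0.05). The fit was also run on simulated counts. These had the same dispersion for every gene and lacked the pattern of WT 3, WT 4 and ARSL KO 4, so they do not cover it. The 95% intervals come from the same limma fit and are intervals of the mean difference, based only on the spread between these libraries. The ER genes, the other lists and the libraries left out were chosen with earlier results of these data known, so no test was made over a list. Values by library are given for the call, 10 defining genes, the 6 smallest p of each class and the 6 widest gaps of WT 3 and WT 4; from the other lists, the 2 smallest p are named. Alternatives were a block by replicate number, filters, normalizations, variance models, weights, limma-voom and left-out libraries. Leaving out WT 3 and WT 4 alone was added after seeing the data. Figures were drawn with matplotlib 3.10.9.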

Additional observations from a re-analysis of the deposited data

Results flagged for a closer look

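In 74 groups of 5 libraries (37 ER genes with a row, ARSL KO and WT apart), 1 library stood far from the rest of its group. Sel1l, the scaffold of the Hrd1 ligase, was low in ARSL KO 5, at 101.3 normalised reads, against 129 to 142 in the other ARSL KO libraries. The gap to the nearest library was 0.719 of the group's range on the log2-like scale, above the critical value of 0.71. Chance alone gives such a gap in about 1 of 20 groups, and ARSL KO 5 was also the lowest library of its group in the averages of the chaperones and of the ERAD genes.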

How the results depend on the processing

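Of 713 differences of single ER genes under 21 alternative settings, 674 kept their direction and side of the threshold, 6 lost the call (all Sdf2l1 with 1 library left out), 1 gained it (Uggt1) and 32 changed sign, none of them called. The Sdf2l1 call held under the other 15 settings. Over the table, 96 genes passed, against 60 with the stricter filter and 219 with array weights. Without WT 3, WT 4 and ARSL KO 4 300 passed (3.56% of all tested genes), and without WT 3 and WT 4 158. With 1 library left out the range was 33 to 101. Of the ER genes 1 passed, 0 to 1 with 1 library left out and 2 without the 3 libraries. Of the 69 tested genes of the other ER lists 0 passed, against 1 with array weights (Calu) and 2 without WT 3 and WT 4, with or without ARSL KO 4 (Calu and Fkbp10). Class medians moved by less than the SD between replicates (0.141 to 0.15), but all 3 changed sign in some setting. Without WT 3 and WT 4 the median was 0.02 for the chaperones and 0.05 for the ERAD genes, against -0.08 for both in the main fit. Without ARSL KO 4 it was -0.03 for the sensors, against 0.03. The replicate numbers gave no clear pairing of the libraries (correlation of same-numbered deviations -0.293 to 0.587). ARSL KO 2 and ARSL KO 4 matched the WT library of the same number best, and the other ARSL KO libraries did not, so pairing was not settled. With a replicate block 136 genes passed, 1 of them an ER gene. WT 3 and WT 4 stood above the other WT libraries in 18 ER genes, also after median centring, with no filter and with the stricter filter. The CCACG part alone lay in 27 of 32 promoter windows.

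The sign changed with array weights for Pdia3 (0.08), Pdia6 (0.00), Edem2 (0.05), Derl2 (-0.02) and Txndc5 (0.02), and with quantile normalization for Hsp90b1 (0.02). Without the 3 libraries it changed for Atf6 (-0.01), Pdia3 (0.07), Pdia6 (0.06), Edem2 (0.04), Os9 (0.01) and Txndc5 (0.02). Without WT 3 and WT 4 it changed for Hsp90b1 (0.03), Ern1 (0.01), Dnajc10 (0.03), Pdia3 (0.17), Pdia6 (0.13), Edem2 (0.12), Hyou1 (0.04), Derl2 (-0.01), Os9 (0.10) and Txndc5 (0.06). With 1 library left out, differences ran from -0.18 to 0.01 for Hsp90b1, -0.03 to 0.09 for Atf6, -0.05 to 0.09 for Dnajb9, -0.22 to 0.00 for Pdia3, -0.16 to 0.01 for Edem2, -0.03 to 0.11 for Derl2 and -0.07 to 0.02 for Txndc5. The cause was not tested. Xbp1, Pdia5 and Edem3 had few reads and were not tested for a difference.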
